A study of Mus musculus with 16 samples.

Results

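The 10 genes described here encode transcription factors that hold mesenchymal cells as preadipocytes or commit them to the fat lineage, and relatives of such factors. They are Gata2, Gata3 and Gata6, the early B-cell factors Ebf1, Ebf2 and Ebf3, the zinc finger genes Zfp423 and Zfp467, and the orphan nuclear receptor genes Nr2f1 and Nr2f2. Members were taken by name, as every probe whose platform annotation gives only that symbol, which found all 10 genes of the 19640 named on the array and 14 of its 38467 probes. Of the 10 genes, 6 had 1 probe, and Ebf1, Ebf3, Zfp467 and Nr2f2 had 2.

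Total RNA came from 3T3-L1, a mouse fibroblast line widely used as a model of preadipocytes. The groups were cells given dexamethasone (dex), a synthetic glucocorticoid, for 2 h, cells given its solvent DMSO for 2 h, cells given dex for 36 h and cells given DMSO for 36 h. Each group had 4 arrays, labelled as biological replicates of this 1 cell line, and no genotype or dose is given in the sources used here. Each RNA was labelled with Cy5 and hybridised with a Cy3-labelled pool of the samples, so every value is a log2 ratio of sample over pool. Such ratios compare samples for 1 probe and give no level of 1 gene against another.

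GATA factors bind GATA motifs through zinc fingers. In mouse preadipocytes Gata2 and Gata3 are known to restrain differentiation by repressing Pparg, the main regulator of the adipocyte programme, and both decline as fat cells form. Nr2f2 (COUP-TFII) likewise holds back adipogenesis in 3T3-L1 cells and lies downstream of Hedgehog signals. Ebf1 and Ebf2 act in the opposite direction and help to switch on Pparg and Cebpa. Zfp423 marks committed preadipocytes and raises their response to BMP signals, and Zfp467 favours the fat over the bone lineage.

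The 16 array medians lay within -0.011 to 0.0083, and the 2-hour arrays were the noisier ones. At 2 h the SD of residuals per array reached 0.333 with dex and 0.435 with DMSO, while at 36 h the highest were 0.205 with dex and 0.151 with DMSO. DMSO 2 h replicate 4 stood apart, its mean correlation with its 3 fellow arrays being -0.10. The response to the hormone was present in the labelled groups, since Glul, Tsc22d3, Zbtb16 and Fkbp5, classic glucocorticoid targets, were 2.36 to 3.09 higher (log2 change, dex minus DMSO) at 2 h and 2.43 to 3.84 higher at 36 h. Of the other genes checked, Per1 was 1.06 higher at 2 h (limma adjusted p = 0.00128) and 0.48 higher at 36 h (adjusted p = 0.0856). The receptor gene Nr3c1 had -0.48 at 2 h and -0.38 at 36 h (limma adjusted p = 0.0568 and 0.0685).

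After 2 h of dex, Gata2 and Nr2f2 fell, and the other 8 genes did not pass. After 36 h Gata2, Nr2f2, Zfp423 and Zfp467 were lower with dex. None of the 10 passed upward at either time in the limma fit of all 16 arrays, in which a gene passed where at least 1 of its probes had an adjusted p under 0.05 over all 38467 probes. At an unadjusted p under 0.05, 1 gene was higher and 3 were lower at 2 h, and at 36 h 1 was higher and 7 were lower, with Ebf1 in both counts at 36 h by different probes. That made 4 of the 10 genes at 2 h and 7 at 36 h, where 14.6% and 27.2% of all genes had such a p in either direction. Of all 19640 genes, 1.97% were called higher and 1.21% lower at 2 h, and 6.88% higher and 4.96% lower at 36 h. Over the 14 probes the median log2 change was -0.02 at 2 h and -0.28 at 36 h, where the medians over all probes were -0.01 and -0.0043. In whole-culture RNA, fewer cells that express a gene and less RNA per cell cannot be told apart.

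**Figure D1:**
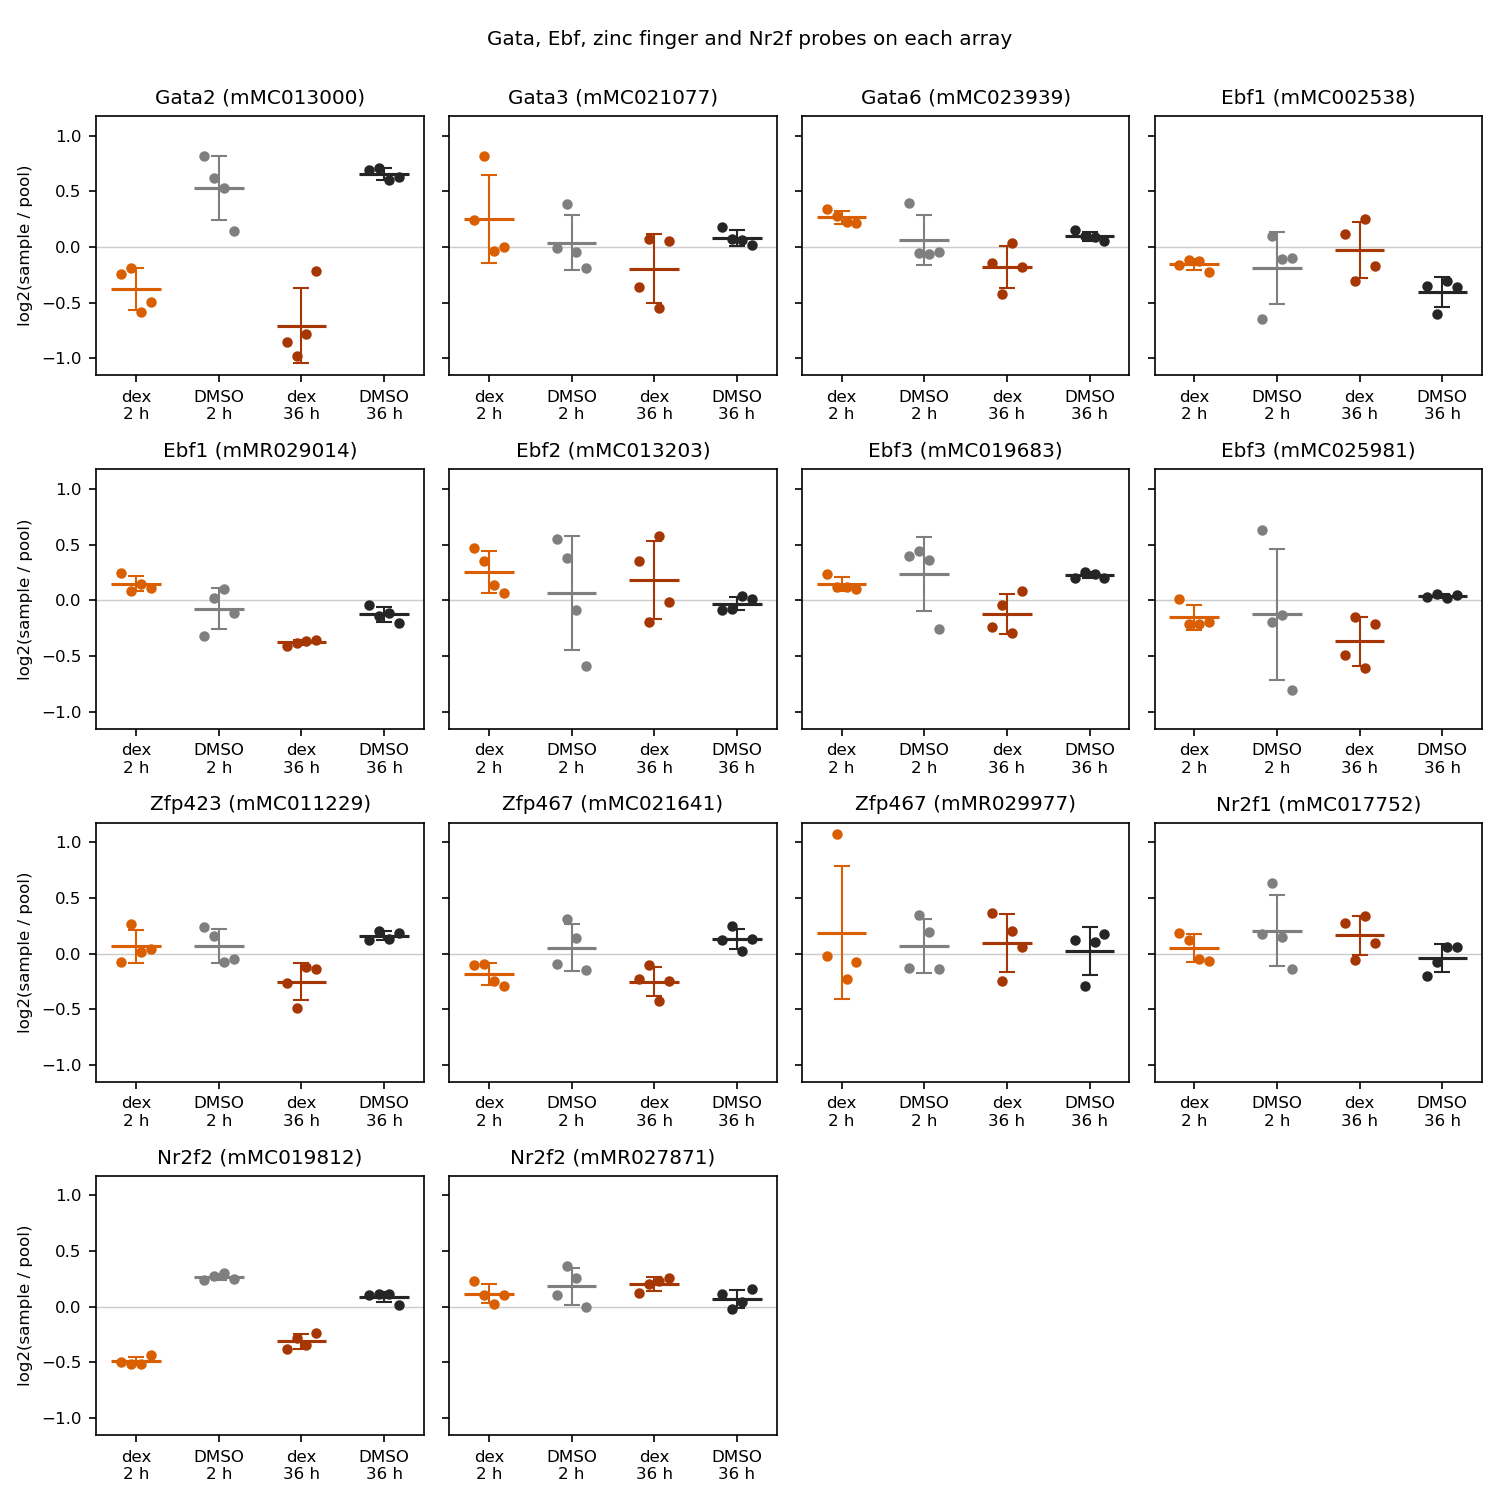
Log2 ratio of sample over pool (vertical axis) for the 14 probes of the 10 genes, 1 panel per probe, in dex 2 h, DMSO 2 h, dex 36 h and DMSO 36 h. Points are arrays, and bars are the mean and SD of 4 arrays. For Gata2 and the Nr2f2 probe mMC019812 all dex arrays lie below all DMSO arrays at both times, while the DMSO 2 h arrays of many probes scatter widely.

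Gata2 gave the largest change with dex of the 14 probes at both times. Its log2 ratios were -0.25, -0.19, -0.58 and -0.50 in dex 2 h replicates 1 to 4, against 0.82, 0.62, 0.53 and 0.14 in DMSO 2 h. All dex arrays were below all DMSO arrays, and the lowest DMSO value was that of replicate 4, the array that stood apart. The gene was 1.88-fold lower with dex (log2 change -0.91 ± 0.16, where ± is the SE here and below, with 4 arrays in each group and limma adjusted p = 0.0044). At 36 h the ratios were -0.86, -0.98, -0.78 and -0.21 in dex replicates 1 to 4, against 0.69, 0.71, 0.60 and 0.63 in DMSO. Dex replicate 4 was the highest of its group, and the groups were again apart. The fall was 2.57-fold (log2 change -1.36 ± 0.16, limma adjusted p = 5.44e-05). The effect at 36 h minus that at 2 h was -0.46 ± 0.23 and did not pass (limma adjusted p = 0.404, 95% interval -0.94 to 0.03). With only the 2-hour arrays in the fit the 2-hour fall was closer to the threshold (limma adjusted p = 0.0428). Without DMSO 2 h replicate 4 the change at 2 h was -1.04 (limma adjusted p = 0.00108). With quantile normalization between arrays the 2-hour call was lost (log2 change -0.96, limma adjusted p = 0.0764), and the change at 36 h was -2.06.

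Nr2f2 had 1 probe that fell and 1 that did not. For probe mMC019812 the log2 ratios were -0.50, -0.52, -0.51 and -0.44 in dex 2 h, against 0.24, 0.27, 0.30 and 0.25 in DMSO 2 h. The spread within groups was small beside the gap between them. The log2 change was -0.76 ± 0.06 (1.69-fold lower, limma adjusted p = 3.43e-06), with rank 42 by p among the 38467 probes. With only the 2-hour arrays in the fit this fall kept its call (limma adjusted p = 0.00313). At 36 h the ratios were -0.38, -0.28, -0.35 and -0.23 in dex, against 0.11, 0.11, 0.12 and 0.02 in DMSO. The groups were apart again, with a smaller gap, and the log2 change was -0.40 ± 0.06 (1.32-fold lower, limma adjusted p = 6.95e-04). The dex effect was thus less negative at 36 h by 0.36 ± 0.09, which passed narrowly (limma adjusted p = 0.0481). It was the 1 gene of 10 called in the upward direction in that test, against 2.12% of all genes. This call was lost in 14 of the 16 fits that left out 1 array, where the adjusted p reached 0.128, and was kept only without DMSO 2 h replicate 1 or 4 (lowest adjusted p = 0.0362). It was also lost with the replicate number as a block (limma adjusted p = 0.11) and with quantile normalization (difference 0.30, adjusted p = 0.183).

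The other Nr2f2 probe, mMR027871, had log2 ratios of 0.02 to 0.23 in dex 2 h and -0.0042 to 0.37 in DMSO 2 h, and of 0.12 to 0.26 in dex 36 h and -0.02 to 0.16 in DMSO 36 h. Its groups overlapped at both times, and its log2 changes were -0.07 ± 0.09 (limma adjusted p = 0.84) and 0.13 ± 0.09 (adjusted p = 0.437). The 95% intervals, -0.25 to 0.12 and -0.05 to 0.32, do not reach the values of the first probe. The annotation ties mMC019812 to 5 sequence records, 2 of them RefSeq transcripts, and mMR027871 to 2 records of which 0 are RefSeq transcripts. With both probes averaged, the log2 change of Nr2f2 was -0.41 at 2 h (limma adjusted p = 0.00181) and -0.13 at 36 h (adjusted p = 0.274).

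The sequences before the transcription starts of Gata2 and Nr2f2 are shown because these genes fell within 2 h. Each is the 250 bases upstream of a start that RefSeq annotates on mouse build GRCm38.p6, written 5′ to 3′ on the gene's strand. The start of Ebf1 that follows is shown because it alone held a match among the windows searched.
Gata2 start 1, chr6:88193641-88193890, plus strand: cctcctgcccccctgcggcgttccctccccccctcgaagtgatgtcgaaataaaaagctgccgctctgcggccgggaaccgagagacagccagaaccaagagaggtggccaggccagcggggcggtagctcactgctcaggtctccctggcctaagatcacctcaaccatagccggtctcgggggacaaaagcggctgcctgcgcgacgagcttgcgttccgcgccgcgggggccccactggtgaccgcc
Gata2 start 2, chr6:88198414-88198663, plus strand: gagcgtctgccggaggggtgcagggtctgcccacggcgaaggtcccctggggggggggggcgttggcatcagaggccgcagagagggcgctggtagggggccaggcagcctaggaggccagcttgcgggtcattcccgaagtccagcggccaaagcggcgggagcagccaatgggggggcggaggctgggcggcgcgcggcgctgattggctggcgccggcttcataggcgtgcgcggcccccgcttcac
Nr2f2 start 1, chr7:70366747-70366996, minus strand: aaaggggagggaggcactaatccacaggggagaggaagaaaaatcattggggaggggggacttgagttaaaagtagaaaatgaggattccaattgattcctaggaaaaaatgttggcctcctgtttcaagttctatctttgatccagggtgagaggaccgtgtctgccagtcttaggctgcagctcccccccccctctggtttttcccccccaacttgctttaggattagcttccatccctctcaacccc
Ebf1 start 1, chr11:44617850-44618099, plus strand: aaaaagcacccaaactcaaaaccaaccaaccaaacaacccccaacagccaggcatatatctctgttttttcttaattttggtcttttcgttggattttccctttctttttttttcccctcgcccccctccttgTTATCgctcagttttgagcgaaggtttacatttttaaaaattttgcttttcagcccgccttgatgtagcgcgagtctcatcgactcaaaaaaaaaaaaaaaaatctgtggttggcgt
Capitals mark a match to GATAA or its reverse complement TTATC; it overlaps none of the other motifs searched. Windows of 8 of the 10 genes, 12 in all, were searched on both strands. No window was available for Ebf2, and Gata6 was left out of the search. The core of the glucocorticoid receptor motif, AGAACA or its reverse complement TGTTCT was in 0 of the 12, against 16.1% of 32851 such windows of the table. AGAACA followed after 3 bases by TGTTCT was in 0 of the 12 and in 0.00913% of all windows. GATAA or TTATC was in 1 of the 12, that of Ebf1, 117 bases before the start, and in 22.6% of all. The windows shown hold 67.2% and 74% G and C for Gata2, 50% for Nr2f2 and 40% for Ebf1.

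Gata3 and Gata6, the other GATA genes, did not pass with dex at either time. Gata3 had log2 ratios of -0.04 to 0.81 in dex 2 h and -0.19 to 0.39 in DMSO 2 h, and of -0.55 to 0.08 in dex 36 h and 0.02 to 0.18 in DMSO 36 h. These groups overlapped at both times, and the log2 changes were 0.22 ± 0.19 (limma adjusted p = 0.73) and -0.28 ± 0.19 (adjusted p = 0.448). For Gata6, known from heart and gut development, the ratios were 0.22 to 0.34 in dex 2 h and -0.06 to 0.40 in DMSO 2 h, and -0.42 to 0.04 in dex 36 h and 0.05 to 0.15 in DMSO 36 h. The 36-hour groups were apart with dex lower, but the log2 change of -0.27 ± 0.11 did not pass (limma adjusted p = 0.152), nor did 0.21 ± 0.11 at 2 h (adjusted p = 0.539). The 95% intervals at 36 h, -0.67 to 0.12 for Gata3 and -0.51 to -0.04 for Gata6, leave out the size of the Gata2 fall. For Nr2f1, the close relative of Nr2f2, the log2 changes were -0.16 ± 0.14 at 2 h (limma adjusted p = 0.743) and 0.20 ± 0.14 at 36 h (adjusted p = 0.475). Its ratios overlapped at both times, with -0.07 to 0.18 in dex 2 h and -0.14 to 0.63 in DMSO 2 h, and -0.05 to 0.34 in dex 36 h and -0.20 to 0.06 in DMSO 36 h.

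**Figure D2:**
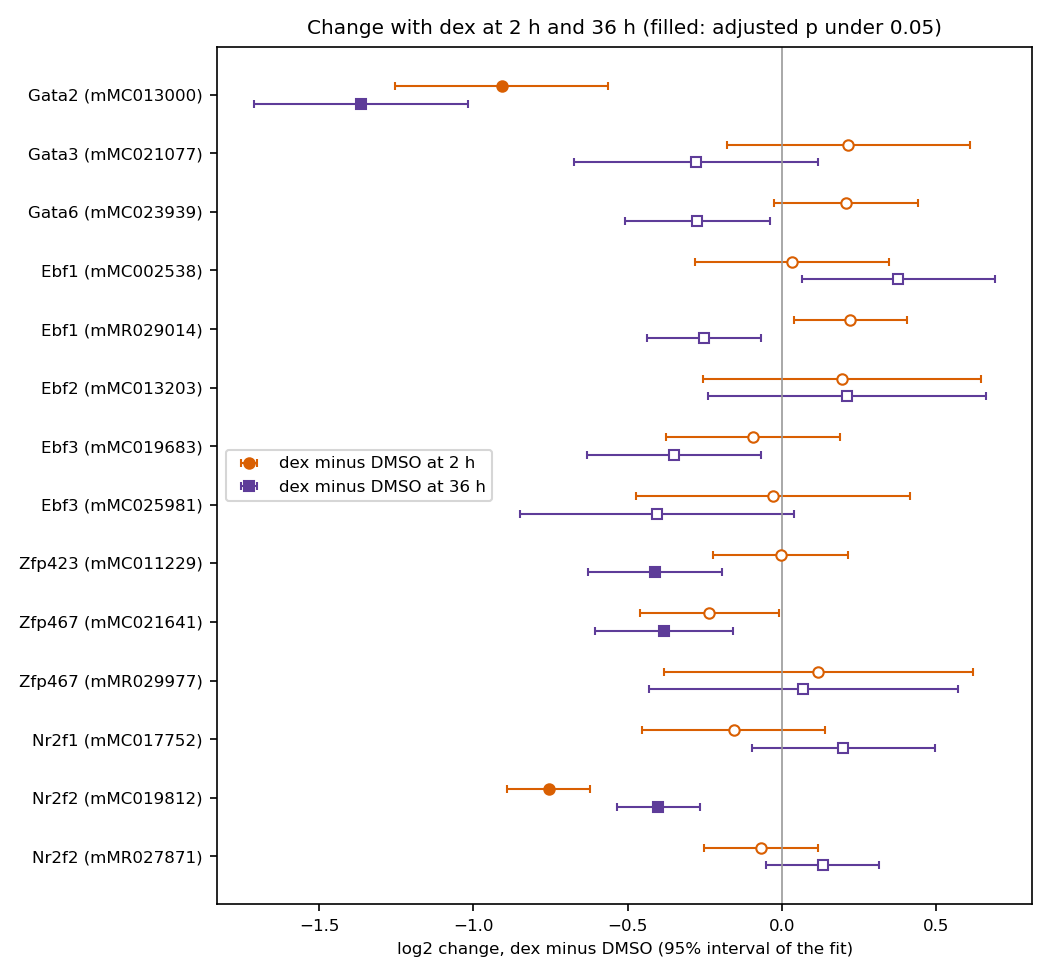
Log2 change, dex minus DMSO (horizontal axis), at 2 h (circles) and 36 h (squares) for each probe, with the 95% interval of the limma fit; filled symbols had an adjusted p under 0.05. The 6 filled symbols, 2 at 2 h and 4 at 36 h, all lie below 0, and the second probes of Nr2f2 and Zfp467 lie near 0.

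Zfp423 fell at 36 h and did not pass at 2 h. Its log2 ratios were -0.27, -0.49, -0.12 and -0.14 in dex 36 h replicates 1 to 4, against 0.12, 0.20, 0.13 and 0.18 in DMSO 36 h. All dex arrays lay below all DMSO arrays, and the log2 change was -0.41 ± 0.10 (1.33-fold lower, limma adjusted p = 0.0203). At 2 h the groups overlapped, with -0.07 to 0.27 in dex and -0.08 to 0.24 in DMSO, and the change was -0.0039 ± 0.10 (limma adjusted p = 0.993). The difference between the effects at 36 h and 2 h was -0.41 ± 0.14 and did not pass (limma adjusted p = 0.202), so the fall is not shown to be confined to the later time. The 36-hour call was lost without dex 36 h replicate 1 (log2 change -0.41, limma adjusted p = 0.062), DMSO 36 h replicate 2 (-0.40, adjusted p = 0.0668) or DMSO 36 h replicate 4 (-0.40, adjusted p = 0.0564).

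Zfp467 fell at 36 h by probe mMC021641. The log2 ratios were -0.23, -0.10, -0.42 and -0.25 in dex 36 h, against 0.12, 0.24, 0.02 and 0.13 in DMSO 36 h, with no overlap. The log2 change was -0.38 ± 0.11 (1.30-fold lower, limma adjusted p = 0.0354). At 2 h it was -0.23 ± 0.11 (limma adjusted p = 0.439), with overlapping ratios of -0.29 to -0.09 in dex and -0.15 to 0.31 in DMSO. The 36-hour call was lost in 6 of the 8 fits that left out 1 array. These were the fits without dex 36 h replicate 1 (limma adjusted p = 0.0864), 3 (0.126) or 4 (0.0617) and without DMSO 36 h replicate 1 (0.0843), 2 (0.122) or 4 (0.0798). The other probe, mMR029977, had a log2 change of 0.07 ± 0.24 at 36 h (limma adjusted p = 0.963) and 0.12 ± 0.24 at 2 h (adjusted p = 0.907). Its dex 2 h replicate 2 read 1.07, while the other arrays of that group lay between -0.23 and -0.02. Of these probes mMR029977 is the one tied to a RefSeq transcript, and mMC021641 is tied to 3 other records. The mean of the probes gave -0.16 at 36 h (limma adjusted p = 0.662).

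The Ebf genes did not pass with dex at either time. Ebf1 was the 1 gene of 10 that passed in dex-treated cells between 36 h and 2 h, downward, against 1.41% of all genes. For its probe mMR029014 the log2 ratios were -0.41, -0.38, -0.37 and -0.36 in dex 36 h, against 0.24, 0.08, 0.15 and 0.11 in dex 2 h. These groups were far apart for their spread, with a log2 change of -0.53 ± 0.09 (1.44-fold lower at 36 h, limma adjusted p = 0.0056). The call held in each of the 8 fits that left out 1 array of these groups, with an adjusted p of at most 0.028. In DMSO cells the same probe changed by -0.05 ± 0.09 between 36 and 2 h (limma adjusted p = 0.885). The difference between these time courses, which equals that between the dex effects, was -0.47 ± 0.12 and did not pass (limma adjusted p = 0.056). Within each time the probe gave opposite signs, with 0.22 ± 0.09 at 2 h (limma adjusted p = 0.329) and -0.25 ± 0.09 at 36 h (adjusted p = 0.0876). The 36-hour fall passed when only the 36-hour arrays entered the fit (limma adjusted p = 0.0105) and with quantile normalization (adjusted p = 0.0458).

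The other Ebf1 probe, mMC002538, moved the other way at 36 h. Its log2 ratios were 0.11, -0.30, 0.25 and -0.17 in dex 36 h, against -0.35, -0.60, -0.31 and -0.36 in DMSO 36 h. Every dex array was above every DMSO array, and the log2 change was 0.38 ± 0.15, which did not pass (limma adjusted p = 0.137). With quantile normalization it did (log2 change 0.42, limma adjusted p = 0.03). The annotation ties this probe to 1 record that is not a RefSeq transcript, and mMR029014 to 6 records that include 1. Averaged, the probes gave 0.06 at 36 h (limma adjusted p = 0.893) and -0.20 between dex 36 h and dex 2 h (adjusted p = 0.482), so the change over time in dex rests on mMR029014.

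Ebf3 was the gene whose probes moved together. Both gave lower ratios on all dex 36 h arrays than on all DMSO 36 h arrays, with log2 changes of -0.35 ± 0.13 and -0.41 ± 0.21 that did not pass (limma adjusted p = 0.127 and 0.285). When only the 36-hour arrays entered the fit both passed, with limma adjusted p = 0.0235 and 0.0249. At 2 h the log2 changes were -0.09 ± 0.13 and -0.03 ± 0.21 (limma adjusted p = 0.859 and 0.981). Ebf2, the marker of brown and beige fat precursors, had log2 changes of 0.19 ± 0.21 at 2 h and 0.21 ± 0.21 at 36 h (limma adjusted p = 0.802 and 0.685). Its arrays overlapped at both times, from 0.07 to 0.47 in dex 2 h and -0.59 to 0.55 in DMSO 2 h, and from -0.19 to 0.58 in dex 36 h and -0.09 to 0.03 in DMSO 36 h. The 95% interval at 36 h, -0.24 to 0.66, leaves room for a moderate change either way.

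**Figure D3:**
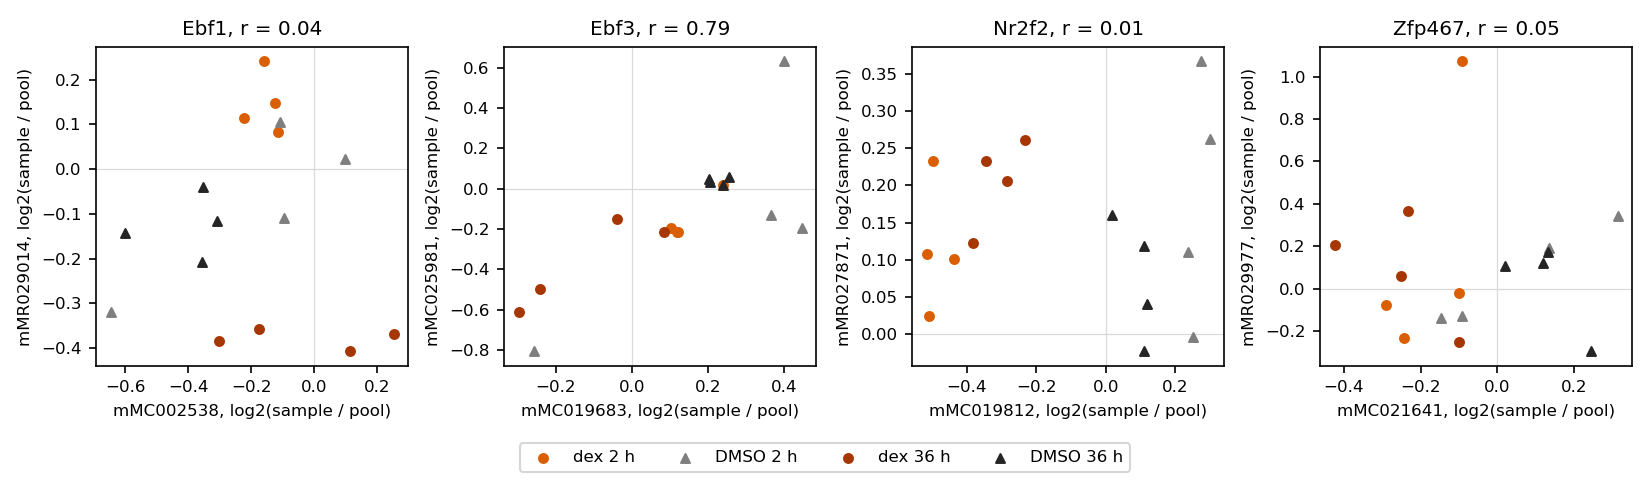
Log2 ratio of sample over pool for the 2 probes of Ebf1, Ebf3, Nr2f2 and Zfp467, 1 probe on each axis; points are the 16 arrays, circles dex and triangles DMSO, with r over the arrays in each title. The Ebf3 probes follow each other (r = 0.79), and those of the other 3 genes do not (r = 0.01 to 0.05).

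Over the 16 arrays, which share their pool and fall into 4 groups, the probes of Ebf3 had r = 0.79, those of Zfp467 r = 0.05, those of Ebf1 r = 0.04 and those of Nr2f2 r = 0.01. What the probes of these 3 genes detect was not tested, as no probe sequences were used here. At 36 h, 8 of the 14 probes had all dex arrays below all DMSO arrays and 1 had them above, where 13.8% and 13% of all probes did. At 2 h the counts were 2 and 0, where 2.79% and 3.07% of all probes did.

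Between 36 and 2 h of DMSO 0 of the 10 genes passed in limma, against 1.26% of all genes, and 1 had an unadjusted p under 0.05, against 16% of all genes. That gene was Nr2f2 by mMC019812, with a log2 change of -0.18 ± 0.06, DMSO 36 h minus DMSO 2 h (limma adjusted p = 0.266). Its 4 arrays at 36 h lay below the 4 at 2 h, as for 1 of the 14 probes and 6.44% of all probes. Gata2 changed by 0.13 ± 0.16 over the same time (limma adjusted p = 0.83). In dex cells Nr2f2 was 0.18 ± 0.06 higher at 36 h than at 2 h (limma adjusted p = 0.202), with the arrays apart, and Gata6 was 0.45 ± 0.11 lower (adjusted p = 0.0557), also with the arrays apart. In dex cells 4 of the 14 probes had all 36-hour arrays below all 2-hour arrays and 1 had them above, where 6.54% and 5.29% of all probes did. The dex contrasts and the time contrasts share arrays, so these values are not independent of each other.

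The genes whose ratios ran most like a member's over the 16 arrays were found for the 5 members that passed in any contrast, as the 3 with the highest r. For Gata2 they were the Rac exchange factor gene Tiam2 (r = 0.98), 9430052C07Rik (r = 0.97) and Tmem164 (r = 0.96). Tiam2 had log2 changes of -0.54 at 2 h and -0.87 at 36 h. For Nr2f2 they were the actin-binding protein gene Afap1 (r = 0.97), the zinc finger repressor gene Hic1 (r = 0.96) and the hyaluronan synthase gene Has2 (r = 0.96). Hic1 changed by -1.18 at 2 h and -0.53 at 36 h, and Has2 by -1.66 and -1.03. That these genes share the pattern of Nr2f2 follows from their choice by r. Zfp423 ran with the protocadherin gene Pcdhb9 (r = 0.92), Dnal1 (r = 0.92) and the forkhead factor gene Foxd1 (r = 0.91), and Zfp467 with the adhesion gene Nectin4 (r = 0.94), Cmtm8 (r = 0.92) and 1110015C02Rik (r = 0.91). For Ebf1 the closest were Capn10 (r = 0.90), Fryl (r = 0.89) and Cd3eap (r = 0.89). Among members, Gata2 and Nr2f2 had r = 0.83, Gata2 and Zfp467 r = 0.78, and Gata2 and Zfp423 r = 0.73. These correlations reflect the 4 groups and are descriptions.

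**Figure D4:**
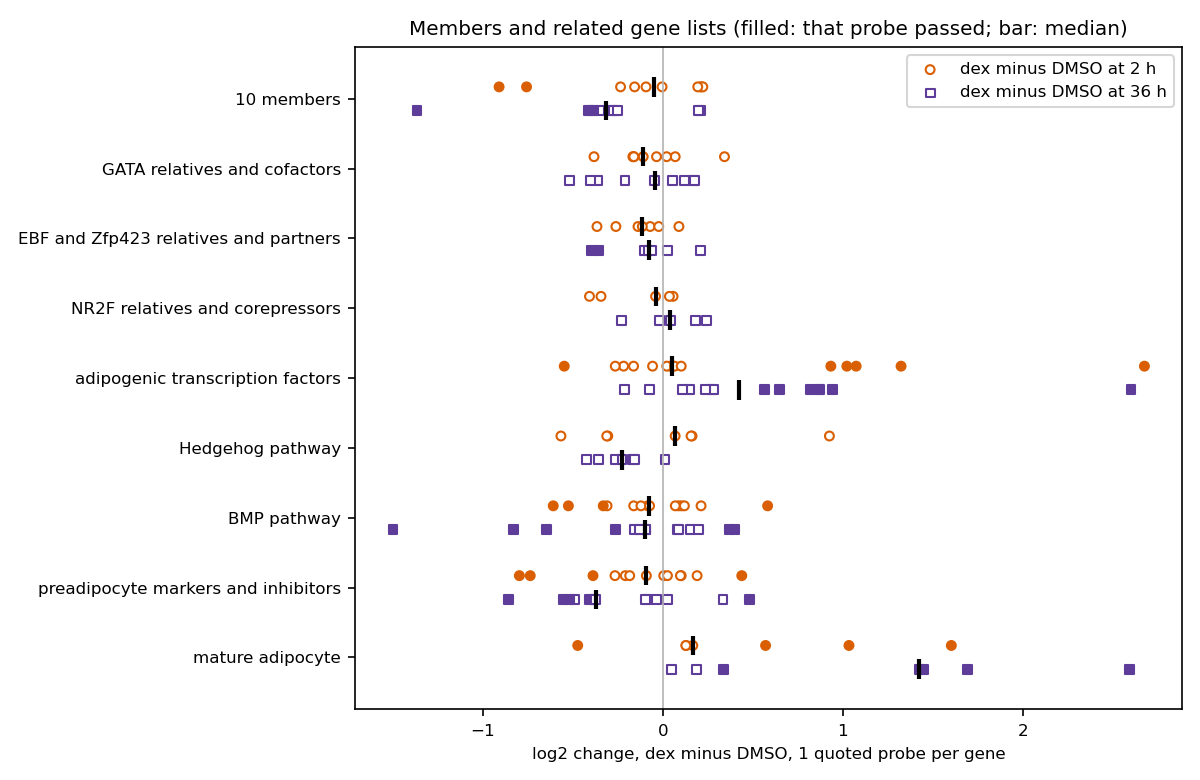
Log2 change, dex minus DMSO (horizontal axis), at 2 h (circles) and 36 h (squares) for the 10 members and 8 related gene lists, with 1 probe per gene; filled symbols had an adjusted p under 0.05 and black bars are medians. At 36 h the adipogenic transcription factors lie mostly above 0 (median 0.42) and the preadipocyte markers and inhibitors mostly below (median -0.37).

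Related genes were counted from lists, where rose and fell mean higher or lower with dex than with DMSO at the same time. Of 9 GATA relatives and cofactors, such as the cofactor genes Zfpm1 and Zfpm2, limma called 0 at either time, and 2 at 2 h and 4 at 36 h had an unadjusted p under 0.05. For this and the following lists the share of all genes with such a p was 14.6% at 2 h and 27.2% at 36 h. Limma called 1.97% of all genes higher and 1.21% lower at 2 h, and 6.88% higher and 4.96% lower at 36 h. Zfpm2 had a log2 change of -0.40 ± 0.13 at 36 h (limma adjusted p = 0.0771). Of 5 measured Nr2f relatives and corepressors limma also called 0 at either time, with 1 at an unadjusted p under 0.05 at each. Nr2f6 had -0.34 ± 0.09 at 2 h (limma adjusted p = 0.0893). Of 7 Ebf and Zfp423 relatives and partners, 0 passed in limma at 2 h (1 unadjusted) and 2 fell at 36 h. These were Zfp521, a relative of Zfp423 that opposes Ebf1 in mouse precursors (-0.40 ± 0.09, limma adjusted p = 0.0108), and Tcf12, an E protein gene (-0.36 ± 0.10, adjusted p = 0.0327). Ebf4 and Prdm16 had -0.10 ± 0.13 and 0.03 ± 0.14 at 36 h (limma adjusted p = 0.772 and 0.984).

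The pathways that act around these factors differed in their counts. Of 7 measured Hedgehog genes limma called 0 at either time, with 4 at 2 h and 2 at 36 h at an unadjusted p under 0.05, against 14.6% and 27.2% of all genes. The receptor gene Ptch1 had -0.57 ± 0.17 at 2 h (limma adjusted p = 0.15) and the transducer gene Smo -0.42 ± 0.13 at 36 h (adjusted p = 0.0553). Of 14 BMP pathway genes 1 rose and 3 fell at 2 h, against 1.97% and 1.21% of all genes. At 36 h 2 rose and 4 fell, against 6.88% and 4.96% of all genes. Id2, an inhibitor of basic helix-loop-helix factors, fell by 0.61 ± 0.14 at 2 h (limma adjusted p = 0.0297) and by more at 36 h (adjusted p = 4.08e-06). The 2 genes that rose at 36 h were Id1 and Id3, by 0.40 ± 0.10 and 0.37 ± 0.08 (limma adjusted p = 0.0199 and 0.00838). The inhibitory Smad genes Smad7 and Smad6 fell at 36 h by 0.83 ± 0.16 and 0.64 ± 0.10 (limma adjusted p = 0.00288 and 4.20e-04). Smad1, a transducer, rose by 0.58 ± 0.10 at 2 h (limma adjusted p = 0.00229). The ligand gene Bmp4 and the receptor gene Bmpr1a did not pass, with -0.10 ± 0.13 and 0.08 ± 0.10 at 36 h.

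Of 14 adipogenic transcription factors 5 rose and 1 fell at 2 h, and 9 rose and limma called 0 lower at 36 h (0 also at an unadjusted p under 0.05). The 1 that fell at 2 h was Cebpa, by 0.55 ± 0.13 (limma adjusted p = 0.0309). At 36 h Cebpa had -0.21 ± 0.13 (limma adjusted p = 0.378). For this and the following lists, 1.97% of all genes rose and 1.21% fell at 2 h, and 6.88% and 4.96% at 36 h. The median log2 change of the list was 0.05 at 2 h and 0.42 at 36 h, where it was -0.01 and -0.0012 over all 19640 genes. At 2 h Zbtb16 rose by 2.67 ± 0.10, Klf5 by 1.32 ± 0.18, Klf9 by 1.07 ± 0.12 and Cebpb by 1.02 ± 0.10 (limma adjusted p = 6.43e-10, 3.24e-04, 4.03e-05 and 1.94e-05). At 36 h the same Klf5 probe had 0.28 ± 0.18 (limma adjusted p = 0.407), and its dex effect at 36 h minus that at 2 h was -1.04 ± 0.25 (adjusted p = 0.0374). Klf5 is still among the 9 that rose at 36 h, through another of its 3 probes. Pparg was named after its values were seen, because Gata2, Gata3 and Nr2f2 are known to repress it. On the probe quoted its dex effect was -0.22 ± 0.15 at 2 h (limma adjusted p = 0.652) and 0.82 ± 0.15 at 36 h (adjusted p = 0.00247). From 2 to 36 h this probe changed by -0.73 ± 0.15 in DMSO cells (limma adjusted p = 0.0332) and by 0.31 ± 0.15 in dex cells (adjusted p = 0.397). Of 13 measured preadipocyte markers and inhibitors 2 rose and 3 fell at 2 h, and 1 rose and 5 fell at 36 h. The median changes were -0.09 and -0.37. Klf2 of this list rose by 0.44 ± 0.10 at 2 h and 0.48 ± 0.10 at 36 h (limma adjusted p = 0.0212 and 0.00473). Pdgfra did not pass at 36 h, with -0.03 ± 0.12 (limma adjusted p = 0.969). Dlk1, the preadipocyte marker Pref-1, was 0.86 ± 0.17 lower with dex than with DMSO at 36 h (limma adjusted p = 0.00423). From 2 to 36 h Dlk1 changed by 0.68 ± 0.17 in DMSO cells (limma adjusted p = 0.0871) and by -0.18 ± 0.17 in dex cells (adjusted p = 0.702). Klf3, a repressor, fell by 0.80 ± 0.09 at 2 h (limma adjusted p = 6.12e-05) and had 0.03 ± 0.09 at 36 h (adjusted p = 0.962). Among the 7 measured genes of mature fat cells, 5 rose at 36 h, while 3 rose and 1 fell at 2 h. Between 2 and 36 h of DMSO limma called 3 of these 7 lower and 0 higher, against 1.26% of all genes in either direction. Over the same time in dex cells it called 0 lower and 1 higher, against 478 of all 19640 genes in either direction. Adipoq and Plin1 did not pass at 36 h, with 0.19 ± 0.08 and 0.05 ± 0.19 (limma adjusted p = 0.211 and 0.971).

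Ratios to a pool cannot show whether a marker of a cell type is absent, so the label of the cells could be checked only for shifts. The mean log2 ratio over 22 probes of 7 fibroblast markers was -0.11 to 0.01 on dex 36 h arrays and 0.07 to 0.27 on DMSO 36 h arrays. Of the 7 genes, 4 were lower with dex than with DMSO at 36 h. Between 2 and 36 h of DMSO limma called 1 of the 7 higher and 0 lower, against 1.26% of all genes in either direction. That gene was Col1a1, with 0.69 ± 0.10 (limma adjusted p = 0.0037). In dex cells Col1a1 changed by -0.08 ± 0.10 (limma adjusted p = 0.803). Over that time in dex cells limma called 0 of the 7 higher and 1, Fn1, lower, against 1.41% of all genes. Of 6 macrophage markers 1 fell at 36 h, of 5 epithelial markers 1 rose, and of 5 endothelial markers limma called 0 at 36 h. Of all genes 4.96% were lower and 6.88% higher with dex than with DMSO at 36 h. The mean over 13 macrophage probes was -0.13 to 0.0047 in dex 36 h and 0.03 to 0.12 in DMSO 36 h. That over 7 endothelial probes was -0.07 to -0.0054 and -0.03 to 0.03, and that over 5 epithelial probes 0.14 to 0.18 and -0.15 to -0.07. The epithelial gene that rose was Krt8 (log2 change 1.15 ± 0.08 at 36 h, limma adjusted p = 8.61e-08), and the others had -0.16 to 0.21. The part of these shifts in the falls at 36 h was not tested.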

How the data were processed

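The files hold 1 table of log2 ratios of sample over pool, which the authors deposited for 16 two-colour arrays. Per the labels the sample was in Cy5 and the pool in Cy3, and limma is named in the submitters' processing notes. No source used here states the base of the log, the background correction or the normalization, and base 2, the scale of limma, was assumed. A different base would rescale every change alike and leave each p as it is. Arrays of dex 36 h replicate 1 and DMSO 36 h replicate 2 had r = -0.34 across probes, and the labelled dye direction was kept. Of all values 131 were missing, 0 of them in member probes.

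Limma 3.58.1 in R 4.3.3 fitted the 4 group means over 16 arrays without covariates (lmFit, eBayes, 12 residual and 3.19 prior degrees of freedom). P values were adjusted by Benjamini-Hochberg over 38467 probes per contrast, for 5 contrasts. A single variance for each probe serves all groups, although the 2-hour arrays were noisier. On simulated data with known changes the fit recovered most of them, and at 2 h, though not at 36 h, it also called unchanged probes at more than the nominal rate. The 2 calls at 2 h are therefore also given from a fit of the 2-hour arrays alone. A gene quoted without a probe name is given by its probe of lowest p in the F test of both dex contrasts. Symbols were updated by Entrez identifier in a RefSeq table of GRCm38.p6 for 28735 of the 29456 single-gene probes. Each related list could name at most 4 called genes, by size of change, and 2 uncalled ones. Outside this rule, Pparg was named for the reason given, and Per1 was named so that the whole hormone check is given. Klf2, Id1, Id3 and Cebpa were named, after their values were seen, because they moved against other named genes of their lists. The members and lists were chosen with earlier results of these data known. Precision is limited by the number of arrays, and signal over background is unknown. Replicate numbers were not taken as pairs, and the alternatives are in the closing section.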

Additional observations from a re-analysis of the deposited data

Results flagged for a closer look

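In 56 sets of 4 arrays (14 probes in 4 groups), 8 had 1 array far from the other 3, where chance gives about 5%. For Nr2f2 (mMC019812), DMSO 36 h replicate 4 read 0.018 and the others 0.11 to 0.12. For Gata6, DMSO 2 h replicate 1 read 0.40 and the others -0.06 to -0.05. For Ebf1 (mMC002538), DMSO 36 h replicate 2 read -0.60 and the others -0.36 to -0.31. For Ebf3, dex 2 h replicate 1 was high on both probes, at 0.24 against 0.10 to 0.12 on mMC019683 and at 0.016 against -0.22 to -0.19 on mMC025981. On mMC019683 DMSO 2 h replicate 4 read -0.26 and the others 0.36 to 0.45. For Zfp467 (mMR029977), dex 2 h replicate 2 read 1.07 and the others -0.23 to -0.02, and DMSO 36 h replicate 2 read -0.30 and the others 0.11 to 0.17.

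The dex effect on Nr2f2 (mMC019812) differed between the times by 0.36 (36 h minus 2 h, limma adjusted p = 0.0481), a call that most fits without 1 array did not keep.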

How the results depend on the processing

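Recomputed 1022 times under the alternatives, the 70 log2 changes of member probes kept their side of the threshold in 967 cases. They lost a call in 26 and gained 1 in 29. Most of the 70 were uncalled in the main fit, so most of the 967 are uncalled values that stayed uncalled. All 26 losses were of called values. Nr2f2 (mMC019812) lost its difference between the dex effects in 16 of 21 recomputations. At 36 h Zfp467 (mMC021641) lost its call in 6 of 13 and Zfp423 in 3 of 13. Gata2 at 2 h lost its call in 1 of 13. No called value changed sign, and 54 values below the threshold did, in 19 of the 70. Of the member genes called, 2 passed for dex at 2 h, 4 for dex at 36 h, 1 for the difference between the dex effects, 0 for DMSO over time and 1 for dex over time. Leaving out 1 array gave 2 to 2, 2 to 4, 0 to 3, 0 to 0 and 1 to 2. The counts at 36 h were 6 with only the groups compared (all downward), 7 with quantile normalization (1 upward, Ebf1 in both directions, and 7 downward), 10 with array weights (3 upward and 8 downward), and 2 both with log-odds above 0, the authors' rule, and with probes averaged per gene. For the difference between the dex effects the member count was 3 with quantile normalization (0 upward and 3 downward, Nr2f2 lost), where 1405 genes passed. With array weights it was 4 (1 upward and 3 downward), where 1847 genes passed. It was 0 with the replicate block, log-odds or averaged probes. For dex over time the member counts were 2 with quantile normalization, 4 with array weights and 0 with averaged probes. Of all genes 819, 3973 and 277 passed there. For dex at 2 h quantile normalization gave 1 member, where 663 genes passed. The block changed no other member count. Deviations of same-numbered arrays had r of -0.10 to 0.34, above 0.1 in 5 of 24 pairs, and 8 of 16 arrays correlated best with their own number. These values do not settle whether the numbers pair the arrays.

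Over all genes, 625 passed at 2 h, and 294 in a fit of only the groups compared. At 36 h 2300 passed, against 4555 with only the groups compared, 4349 with quantile normalization, 9087 with array weights, 1028 with log-odds, and 1289 to 3081 without 1 array. For the difference 683 passed, against 1405 and 1847 with quantile normalization and array weights. For DMSO over time 248 passed, against 94, 750 and 501 with the groups compared, quantile normalization and weights, and 120 to 531 without 1 array. For dex over time 478 passed, against 265, 819 and 3973, and 277 with averaged probes and 167 to 636 without 1 array. The cause of these shifts was not tested.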
